A study of Mus musculus with 4 samples.

Results

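The genes of the matrix metalloproteinases (Mmp), the tissue inhibitors of metalloproteinases (Timp), the ADAMTS proteases (Adamts) and the ADAMTS-like proteins (Adamtsl) were described in C3H10T1/2 cells, a mouse mesenchymal stem cell line, without and after induction with 5-AZA. The drug, 5-azacytidine, resembles cytidine, is built into RNA and DNA, and reduces the methylation of newly made DNA. The members were chosen by gene symbol alone, as Mmp, Timp, Adamts or Adamtsl followed by a number. Of the 21878 genes in the mRNA table, 51 carried such a symbol, and these were 23 Mmp, 4 Timp, 19 Adamts and 5 Adamtsl genes. The comparison was between 2 untreated samples, replicates 1 and 2, and 2 samples treated with 5-AZA, replicates 101 and 102. The treated cells received 20 μmol/L 5-AZA for 72 hours and were then kept in fresh growth medium for 21 days more. No other agent and no genetic change was named for either group. The sources used here give no culture time for the untreated cells, so 5-AZA and time in culture cannot be told apart. The study calls the samples of a group biological repeats, but no source says that they came from separate cultures, and the p-values below measure only the spread between these samples, which may be technical.

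Levels are FPKM (fragments per kilobase of transcript, scaled to the mapped fragments of the library) as deposited by the authors, summed over the transcripts of a gene. Because FPKM is scaled to length, levels of different genes can be set side by side. The read depth behind them is unknown. The FPKM values of a sample summed to between 328410 and 361664, and 10298 to 11124 genes reached 1 FPKM. Across genes, which are not independent replicates, the log2 levels correlated with Pearson's r = 0.991 between the untreated samples, 0.985 between the 5-AZA samples, and 0.903 to 0.913 between samples of different groups. Differences were tested with limma on log2(FPKM + 0.1), over the 13199 genes with a mean of at least 0.1 FPKM, with Benjamini-Hochberg adjustment over all of them. A gene was called when its adjusted p was below 0.05 and it differed by more than 2-fold on this scale. Genes past the adjusted p alone, at any size, are described as having passed the test. The pseudocount of 0.1 makes the differences of weakly expressed genes look smaller than they are.

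Matrix metalloproteinases are zinc-dependent enzymes that cut collagens, fibronectin, laminins and many other proteins outside the cell. They are made as inactive precursors, and the Timp proteins bind and block them. The ADAMTS enzymes are related secreted proteases with thrombospondin repeats that anchor them in the matrix, some of which cut proteoglycans and others of which trim procollagens. The Adamtsl proteins share the repeats of the ADAMTS enzymes but have no catalytic domain. In connective tissue and muscle, these genes are known for the turnover of the matrix around cells, including when myoblasts migrate and fuse.

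Several members lie close together in the genome, among them Mmp3. As a gene, Mmp3 was called higher under every setting tried, while the call of its transcript was lost in some. In the RefSeq annotation (build GRCm38.p6), 10 Mmp genes follow one another on chr9:7272514-7699585, a stretch of 427 kb, in the order Mmp13, Mmp12, Mmp1b, Mmp3, Mmp1a, Mmp10, Mmp8, Mmp27, Mmp20 and Mmp7. No other protein-coding gene is annotated between them. Only Mmp3, which encodes stromelysin 1, reached 1 FPKM in any of the groups, and it did so in the 5-AZA samples. The 250 bases before its annotated start are shown because Mmp3 had the largest fitted rise among the members with the pseudocount of 0.1 FPKM. The capitals mark TGAGTCA, the letters bound by AP-1, the Fos and Jun family of transcription factors, and the sequence is read 5′ to 3′ from the plus strand within the window chr9:7445572-7445871.

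Mmp3: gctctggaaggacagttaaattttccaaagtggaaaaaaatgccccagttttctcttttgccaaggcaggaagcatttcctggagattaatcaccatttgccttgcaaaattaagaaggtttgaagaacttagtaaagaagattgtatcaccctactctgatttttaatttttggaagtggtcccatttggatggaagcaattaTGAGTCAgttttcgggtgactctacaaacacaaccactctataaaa

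The AP-1 letters TGAGTCA, or TGACTCA on the other strand, were searched in the RefSeq windows of 300 bases, 250 before to 50 after each start. RefSeq windows were matched for 36 of the 51 members, with 39 starts in all. The letters were present in 7 of the 39 windows of members, or 17.9%, against 5.2% of all 32851 windows. The 7 windows belonged to 7 genes of the chromosome 9 group, which has 10 genes, while 0 of the 26 other matched members held the letters. The 15 members without a window, among them Mmp2, Mmp9 and Adamts15, all lie outside this group and were not searched. The stretches around the match, printed so that neighbouring genes can be compared, are these, with the match in capitals and each read along its own gene's strand.

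Mmp13: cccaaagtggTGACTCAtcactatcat
Mmp12: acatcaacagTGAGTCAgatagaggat
Mmp1b: ttacaaagccTGAGTCAtatagcctct
Mmp3: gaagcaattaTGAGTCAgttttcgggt
Mmp1a: ttgtcaaccaTGAGTCAcatagcctct
Mmp10: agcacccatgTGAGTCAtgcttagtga
Mmp7: agtgtgcaaaTGAGTCAcctatttcca

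The match began at -46 from the annotated start in Mmp3, at -35 in Mmp13, at -44 in Mmp12, at -63 in Mmp10 and Mmp7, at -73 in Mmp1a and at -93 in Mmp1b. Mmp12 and Mmp7 each have a further annotated start, whose window held no match. Of the 7 genes with a match only Mmp3 was above the limit for testing. A match of letters is a description of the sequence and does not show that a factor is bound there.

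The same windows differed in CG dinucleotides, the bases at which mammalian DNA is methylated. The windows of the chromosome 9 group had a median of 1 CG, with a range of 0 to 7, and that of Mmp3 had 1. The other matched members had a median of 22, with a range of 2 to 46. Across all 39 windows of members the median was 17, against 7 over all RefSeq windows. By level, the 17 windows of members that reached 1 FPKM in a group had a median of 20 CG, with a range of 1 to 46. The 22 windows of members below 1 FPKM had a median of 3, with a range of 0 to 44. Nearly all windows of the chromosome 9 group, where only Mmp3 reached 1 FPKM, are among the latter. Outside this group, windows of members below 1 FPKM held 2 CG in Adamts13, Mmp21 and Timp4, 8 in Adamtsl2 and 18 in Mmp25. The rest of them held 22 in Adamts18 and Mmp15, 41 in Adamts3 and Adamts20, and 44 in Adamts14 and Mmp24. Windows outside the group at 1 FPKM or more ranged from 7 CG in Adamts12 to 46 in Adamtsl3. A relation of CG count and level apart from this group was not tested. Of the 3 called members with a window, Mmp3 had 1 CG, Mmp23 had 23 and 19 at its 2 starts, and Adamts9 had 25. The 250 bases before 1 start of Mmp23 are printed as the contrast to Mmp3. They lie on the minus strand within the window chr4:155653241-155653540, which holds 23 CG in its 300 bases, and the 18 CG of the printed bases are in capitals.

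Mmp23: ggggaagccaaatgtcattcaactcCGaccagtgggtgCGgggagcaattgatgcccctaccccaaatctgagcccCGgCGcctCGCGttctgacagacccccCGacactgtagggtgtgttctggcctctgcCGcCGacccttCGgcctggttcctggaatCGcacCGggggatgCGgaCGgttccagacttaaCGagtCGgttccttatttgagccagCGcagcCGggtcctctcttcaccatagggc

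DNA methylation itself was not measured in the files analysed here.

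**Figure D1:**
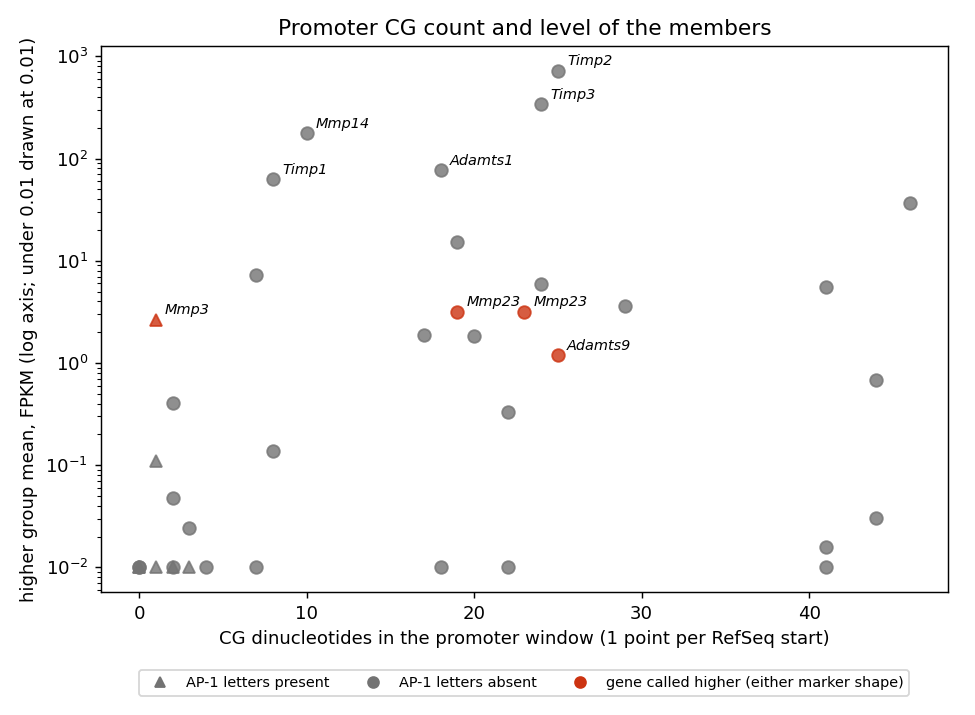
Number of CG dinucleotides in the RefSeq promoter window of a member (x axis, 1 point per annotated start, 39 windows) against the higher of its 2 group means in FPKM (y axis, log scale, values under 0.01 drawn at 0.01). Triangles mark windows with the AP-1 letters and red marks genes called higher after 5-AZA; Mmp3 lies at the left with 1 CG, while both Mmp23 starts and Adamts9 lie between 19 and 25 CG.

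Of the 51 members, 30 passed the limit on low values and were tested. Mmp3, Mmp23 and Adamts15 passed it only through their 5-AZA samples, since their untreated means were below 0.1 FPKM. After 5-AZA, 6 of the 30 were called higher (Mmp3, Mmp23, Adamts15, Adamts6, Adamtsl1 and Adamts9) and 0 were called lower by limma, while the counts at an unadjusted p below 0.05 were 15 higher and 2 lower. Over all genes tested, 13.1% were called higher, 1.32% lower and 14.4% in either direction. At an unadjusted p below 0.05, 3220 of the 13199 genes tested were higher and 1464 lower. At an adjusted p below 0.05 of any size, 11 members passed the test upward and 2 downward, where 18.6% of all genes did so upward and 5.93% downward. Both 5-AZA values lay above both untreated values in 19 tested members and below them in 4, against 36.8% and 25.4% of all genes. The median log2 difference was 0.35 over the tested members and 0.05 over all tested genes. The 24 tested members that were not called were not shown to be unchanged.

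These counts changed with the samples and the scaling. Without 5-AZA replicate 101, and likewise without 5-AZA replicate 102, only 1 member (Mmp3) was called, where the share called over all genes was 7.46% and 6.19%. Without untreated replicate 2 the count was 3, with 12.6% of all genes called. Under quantile normalization Mmp3, Mmp23 and Adamts15 were called higher and Adamts7 and Adamts14 lower, and the share of higher genes among all calls went from 90.8% to 54%.

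**Figure D2:**
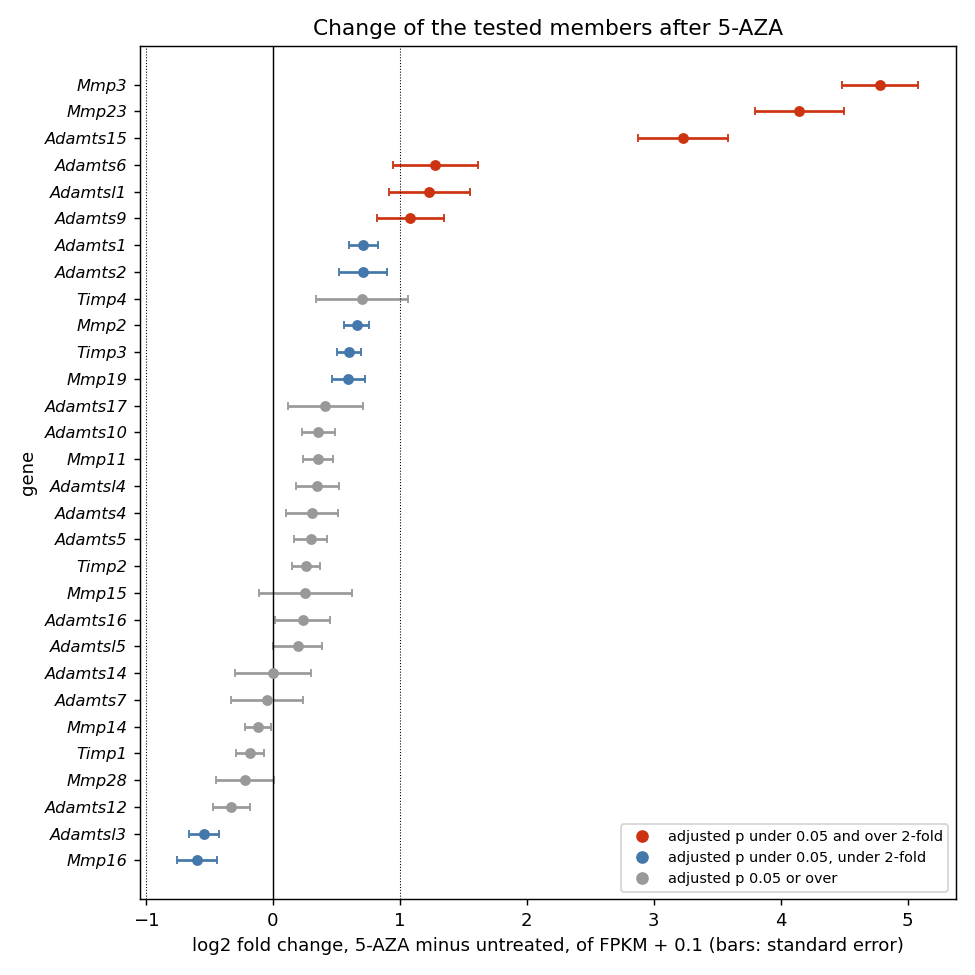
Log2 difference between the 5-AZA and untreated samples on log2(FPKM + 0.1) (x axis) for the 30 members tested, with bars for the standard error of the fit on 2 samples per group. Red points passed an adjusted p of 0.05 and 2-fold, blue points passed the adjusted p only, and dotted lines mark 2-fold; Mmp3, Mmp23 and Adamts15 stand to the right of all other members.

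The 5-AZA samples also differed from the untreated ones in markers of several cell types. All 10 skeletal muscle markers, such as Myog and Acta1, were called higher, and their summed level was 1.28 to 1.60 FPKM in the untreated and 822 to 1261 FPKM in the 5-AZA samples. Of 7 adipocyte markers 6 were called higher, with sums of 32.8 to 47.8 and 1108 to 1524 FPKM. Chondrocyte markers went mostly the other way, with 6 of 7 tested, 5 called lower and 1 (Comp) higher. Their sums were 148 to 158 and 33.0 to 50.5 FPKM. Of 8 osteoblast markers 5 were tested and 4 called higher (17.8 to 32.2 and 60.1 to 64.7 FPKM), although Ibsp was listed at 0 in every sample. Runx2 of the same list was lower without overlap, from 8.06 and 8.28 to 5.19 and 5.32 FPKM. Its log2 difference of -0.63 had a limma adjusted p of 0.0111, under 2-fold. Bglap2, the highest of the list after 5-AZA, stood at 4.12 and 19.8 FPKM in the untreated samples. Alpl and Sp7 were under the limit for testing. The 10 mesenchymal markers, among them Vim and Col1a2, summed to 4411 to 4413 and 3400 to 3418 FPKM, with 2 called higher (Lum and Thy1) and 0 lower by limma. Vim was the largest part of these sums, at 2268 and 2406 FPKM without and 1178 and 1380 FPKM with 5-AZA. At an unadjusted p below 0.05, 5 mesenchymal markers were higher and 4 (Vim, Fn1, Col1a1 and Col1a2) lower.

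Markers of blood and vessel cells were at low levels. Macrophage markers summed to 4.52 to 5.79 FPKM in the untreated and 6.38 to 8.44 in the 5-AZA samples. Of 8 in the list 3 were tested and 1 (Cd68) was called higher, and Adgre1 and Marco were listed at 0 throughout. Of 7 neutrophil markers 2 were tested, S100a8 and Camp, both listed at 0 in the untreated samples, and both were called higher. They summed with the rest to 4.30 to 8.48 FPKM in the 5-AZA samples, while S100a9, Mpo, Elane and Ngp were listed at 0 in every sample. Endothelial markers summed to 0.501 to 0.758 and 3.57 to 4.12 FPKM, with 5 of 6 tested, 3 called higher and Kdr listed at 0. The shares over all genes tested were 13.1% called higher and 1.32% lower. Tested markers with an untreated mean below 0.1 FPKM, such as Myog, Cidec, Camp and Cdh5, passed the limit only through their 5-AZA samples. The part of these cell types in the differences of the protease and inhibitor genes was not tested. In such bulk RNA, fewer or more cells of a type and less or more RNA per cell cannot be told apart.

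Most of the Mmp message came from the genes for gelatinase A and for the membrane-type enzyme that activates it. The summed level of the 23 Mmp genes was 373 and 382 FPKM in the untreated and 445 and 496 FPKM in the 5-AZA samples. Mmp2, which encodes gelatinase A, stood at 169 and 167 FPKM in the untreated samples and at 252 and 279 FPKM after 5-AZA. The groups did not overlap, and Mmp2 rose by 0.66 ± 0.10 (SE) on the log2 scale with a limma adjusted p of 0.00132, short of 2-fold. Without 5-AZA replicate 102 the adjusted p was 0.0511. Its share of the Mmp sum was 45.2% and 43.7% without and 56.6% and 56.3% with 5-AZA. The other gelatinase, Mmp9, stayed below 0.1 FPKM in all 4 samples and was not tested.

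Mmp14, the membrane-type enzyme (MT1-MMP) that cleaves pro-MMP2 at the cell surface, was about as abundant as Mmp2 in untreated cells, with 171 and 182 FPKM. After 5-AZA it stood at 152 and 174 FPKM, so the groups overlapped. Its log2 difference of -0.12 ± 0.10 (SE) did not pass the test, with a limma adjusted p of 0.468. Mmp2 over Mmp14, as a ratio of FPKM within a sample, was 0.985 and 0.918 in the untreated and 1.66 and 1.61 in the 5-AZA samples, without overlap and with no test of its own.

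Mmp16 (MT3-MMP), another membrane-type enzyme, was the one Mmp gene that passed the test downward. It was listed at 12.0 and 11.1 FPKM in the untreated and 8.64 and 6.67 FPKM in the 5-AZA samples. Both 5-AZA samples were lower, by -0.60 ± 0.16 (SE) on the log2 scale, with a limma adjusted p of 0.0232. That adjusted p was 0.0921 without untreated replicate 1, 0.0733 without 5-AZA replicate 101 and 0.142 without replicate 102, and it was 0.142 with no limit on low values and 0.0852 with eBayes without trend. Mmp15 was tested at 0.232 to 0.431 FPKM and did not pass, and Mmp17, Mmp24 and Mmp25 were under the limit for testing.

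Mmp3, one of the stromelysins, which cut proteoglycans, laminin and fibronectin and activate other MMPs, was listed at 0 in both untreated samples and at 2.62 and 2.69 FPKM in both 5-AZA samples. No fold can be given against a level listed at 0. On log2(FPKM + 0.1) the difference was 4.79 ± 0.30 (SE) with a limma adjusted p of 8.88e-06, and its size followed the pseudocount, from 1.87 with 1 FPKM to 8.06 with 0.01 FPKM. Mmp3 was called in all 11 alternatives that were run, with adjusted p-values up to 0.0232. Its neighbours in the chromosome 9 group stayed near 0. The next highest, the collagenase gene Mmp13, was listed at 0.0130 and 0 FPKM in the untreated and 0.127 and 0.0914 FPKM in the 5-AZA samples and was under the limit for testing. The collagenase genes Mmp1a, Mmp1b and Mmp8, the stromelysin 2 gene Mmp10, the matrilysin gene Mmp7 and the macrophage elastase gene Mmp12 were below 0.001 FPKM in every sample.

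Mmp11, stromelysin 3, was listed at 11.9 and 11.7 FPKM without and at 14.3 and 16.0 FPKM with 5-AZA. Although the groups did not overlap, its difference of 0.36 ± 0.12 (SE) had a limma adjusted p of 0.0653.

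Mmp23 is unusual among the MMPs, since it is anchored in the membrane by its amino-terminal part and lacks the usual hemopexin domain. Its level was 0.149 and 0.0356 FPKM in the untreated samples and 2.79 and 3.57 FPKM in the 5-AZA samples. All 5-AZA values exceeded all untreated values, and the called rise was 4.15 ± 0.35 (SE) on the log2 scale with a limma adjusted p of 5.35e-05. Leaving out 5-AZA replicate 101 gave an adjusted p of 0.0700 and leaving out 102 one of 0.0769, and the difference was 1.93 with a pseudocount of 1 FPKM.

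Mmp19, an enzyme of basement membrane proteins, was listed at 7.12 and 7.72 FPKM in the untreated and 10.9 and 11.6 FPKM in the 5-AZA samples. It rose by 0.59 ± 0.13 (SE) on the log2 scale with a limma adjusted p of 0.0108, under 2-fold. The adjusted p was 0.0782 without untreated replicate 1, 0.0991 without 5-AZA replicate 101 and 0.123 without 102. Mmp28 (epilysin) was at 1.59 and 2.10 FPKM and, after 5-AZA, at 1.51 and 1.60 FPKM, overlapping between the groups, with an adjusted p of 0.552.

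**Figure D3:**
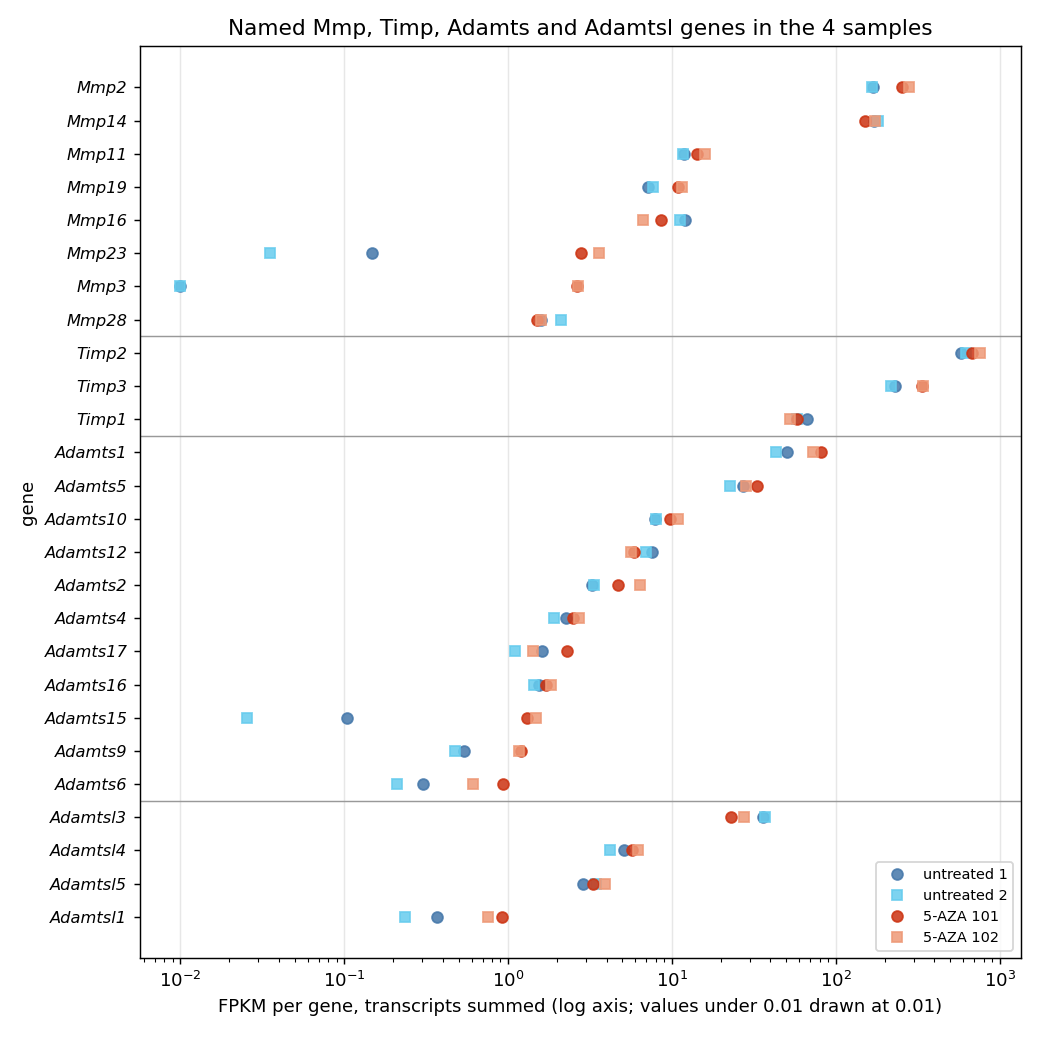
Level in FPKM (x axis, log scale, values under 0.01 drawn at 0.01) of the 26 members named with their values, 1 point per sample, with blue for untreated and red for 5-AZA samples and lines between the Mmp, Timp, Adamts and Adamtsl genes. The 5-AZA points of Mmp3, Mmp23 and Adamts15 lie above 1 FPKM and their untreated points at or below 0.149 FPKM, and the shifts of the other 23 named members are smaller on this axis.

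Timp2, Timp3 and Timp1 were among the most abundant members, and Timp4 was not. Their summed level was 879 and 899.6 FPKM in the untreated and 1075 and 1159 FPKM in the 5-AZA samples, above that of all Mmp genes together. None of the 4 was called by limma, 2 had an unadjusted p below 0.05 and 1 passed the adjusted p, all upward. Of the 13199 genes tested, 14.4% were called, and 18.6% passed the adjusted p upward and 5.93% downward. At an unadjusted p below 0.05, 3220 of those genes were higher and 1464 lower. Whether the 4 Timp genes differ from all genes was not tested. In order of level, Timp2 stood first in both groups and Timp3 came next, with no overlap between neighbours.

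Timp2, which both inhibits MMP2 and helps MMP14 to activate it, was listed at 582 and 624 FPKM in the untreated and 681 and 765 FPKM in the 5-AZA samples. The 5-AZA values were the higher ones, but the log2 difference of 0.26 ± 0.11 (SE) did not pass, with a limma adjusted p of 0.129. Within a sample, Timp2 was 3.45 and 3.74 times Mmp2 without and 2.70 and 2.74 times Mmp2 with 5-AZA. Against Mmp14 the ratio went the other way, from 3.40 and 3.43 to 4.48 and 4.40. Neither ratio overlapped between the groups, and neither was tested.

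Timp3, an inhibitor that binds to the matrix and also blocks ADAMTS4 and ADAMTS5, rose. It was listed at 230.0 and 217 FPKM in the untreated and 336 and 341 FPKM in the 5-AZA samples. The groups did not overlap, and the log2 difference was 0.60 ± 0.09 (SE) with a limma adjusted p of 0.00188, under 2-fold. Without 5-AZA replicate 101 the adjusted p was 0.0670 and without 102 it was 0.0721. Set against the summed level of Adamts1 and Adamts5, Timp3 stood at 2.95 and 3.30 without and 2.95 and 3.38 with 5-AZA, which overlapped.

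Timp1 was at 66.7 and 58.5 FPKM in the untreated and at 57.8 and 52.5 FPKM in the 5-AZA samples, with a log2 difference of -0.18 ± 0.11 (SE) and a limma adjusted p of 0.277. Its transcripts, none of which was called, were listed separately. NM_001044384.1 was listed at 24.9 and 19.4 FPKM without and 14.5 and 14.1 FPKM with 5-AZA, a difference of -0.61 with an adjusted p over transcripts of 0.153. NM_011593.2, the more abundant transcript, was at 38.0 and 32.9 and at 39.8 and 34.1 FPKM, with an adjusted p of 0.880, and the difference between the transcripts was not tested. Timp4 was the least abundant inhibitor, at 0.149 and 0.286 FPKM without and 0.395 and 0.413 FPKM with 5-AZA, and its adjusted p was 0.205.

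**Figure D4:**
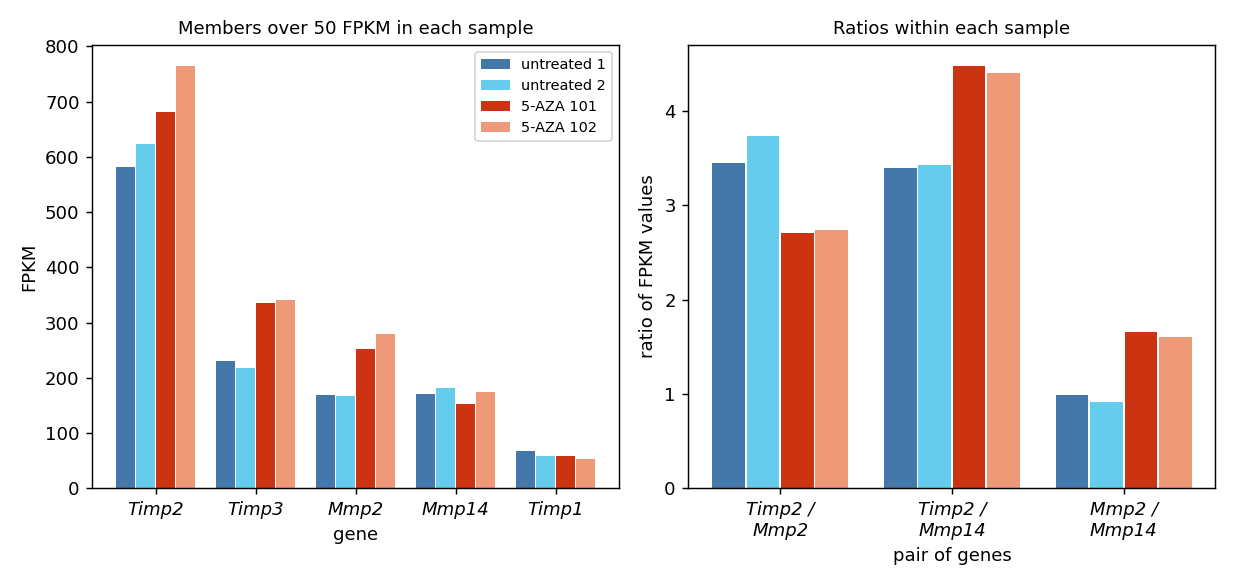
Left, FPKM of the 5 members above 50 FPKM in every sample, with 1 bar per sample and no error bars. Right, ratios of FPKM within each sample; Timp2 over Mmp2 is lower and Mmp2 over Mmp14 higher in both 5-AZA samples.

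The Adamts genes were led by the proteoglycanases, which cut aggrecan and versican. The 19 Adamts genes summed to 105 and 90.4 FPKM in the untreated and 146 and 135 FPKM in the 5-AZA samples. Of 7 proteoglycanase genes 5 were tested, of which 2 were called higher and 3 passed the adjusted p upward. All 5 had both 5-AZA values above both untreated values. The shares of all genes tested were 13.1% called higher, 18.6% passing upward and 36.8% with both 5-AZA values above. Among the 5, Adamts15 passed the limit on low values only through its 5-AZA samples. Whether these few genes differ from all genes was not tested.

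Adamts1 was the most abundant, at 50.6 and 43.2 FPKM in the untreated and 81.1 and 72.5 FPKM in the 5-AZA samples. It rose by 0.71 ± 0.11 (SE) on the log2 scale with a limma adjusted p of 0.00206, short of 2-fold, and the groups did not overlap. This adjusted p became 0.131 without 5-AZA replicate 101, 0.105 without 102 and 0.0695 with no limit on low values. Adamts5, its neighbour on chromosome 16 and an aggrecan-cutting enzyme of cartilage, was listed at 27.4 and 22.6 and at 32.9 and 28.4 FPKM. Its difference of 0.30 had an adjusted p of 0.140, and Adamts4, at 2.26 and 1.92 and at 2.48 and 2.73 FPKM, had one of 0.323.

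Adamts15, a further versican-cutting enzyme, was called higher. Its level was 0.104 and 0.0255 FPKM in the untreated and 1.31 and 1.49 FPKM in the 5-AZA samples. The groups were far apart, with a log2 difference of 3.23 ± 0.35 (SE) and a limma adjusted p of 2.26e-04. Without 5-AZA replicate 101 the adjusted p was 0.0733, without 102 it was 0.0784, and the difference was 1.17 with a pseudocount of 1 FPKM. Adamts8, which lies beside Adamts15 on chromosome 9, was under the limit for testing, at 0.0463 and 0.0124 FPKM without and 0.147 and 0.189 FPKM with 5-AZA.

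Adamts9, which cuts versican and acts in the endoplasmic reticulum and at the base of cilia, was at 0.538 and 0.478 FPKM in the untreated and 1.21 and 1.16 FPKM in the 5-AZA samples. Its called difference of 1.08 ± 0.26 (SE) had a limma adjusted p of 0.0168 and lay just over 2-fold. Under quantile normalization the difference was 0.17 with an adjusted p of 0.583, and the adjusted p was 0.0761 without untreated replicate 2, 0.0906 without 5-AZA replicate 101, 0.0957 without 102 and 0.0589 with no limit on low values. With samples centred on their medians or a pseudocount of 1 FPKM the difference was under 2-fold, at 0.98 and 0.54.

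Adamts6, a relative of Adamts10 for which fibrillin-rich matrix is a known site of action, was listed at 0.304 and 0.209 FPKM in the untreated and 0.931 and 0.615 FPKM in the 5-AZA samples. It was called higher, by 1.28 ± 0.34 (SE) on the log2 scale, with a limma adjusted p of 0.0243. This call was also lost under quantile normalization, with a difference of 0.14 and an adjusted p of 0.771. The adjusted p was 0.113 without untreated replicate 2, 0.147 without 5-AZA replicate 101, 0.101 without 102 and 0.114 with no limit on low values, and the difference was 0.49 with a pseudocount of 1 FPKM. Adamts10, which acts on fibrillin microfibrils, stood at 7.92 and 8.03 and at 9.69 and 10.9 FPKM, and its adjusted p was 0.0854.

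Adamts2 removes the amino-terminal propeptide of fibrillar procollagens. Its level was 3.25 and 3.37 FPKM without and 4.72 and 6.38 FPKM with 5-AZA. It rose by 0.71 ± 0.19 (SE) on the log2 scale with a limma adjusted p of 0.0261, under 2-fold. Its adjusted p was 0.0616 without untreated replicate 1, 0.0810 without 5-AZA replicate 101 and 0.169 without 102, and it was 0.138 with no limit on low values and 0.0655 with eBayes without trend. Of the other procollagen N-proteinases, Adamts3 was below 0.001 FPKM everywhere and Adamts14 lay between 0.546 and 0.811 FPKM with overlapping groups.

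Adamts12, one of a pair of enzymes known to cut the cartilage protein COMP, was at 7.55 and 6.93 FPKM in the untreated and 5.89 and 5.61 FPKM in the 5-AZA samples. Both 5-AZA values were the lower ones, but the difference of -0.33 ± 0.14 (SE) had a limma adjusted p of 0.142. Its partner Adamts7 lay between 0.524 and 0.595 FPKM with overlapping groups. Adamts17 was listed at 1.61 and 1.11 and at 2.31 and 1.42 FPKM, with overlap and an adjusted p of 0.366, and Adamts16 at 1.54 and 1.45 and at 1.71 and 1.83 FPKM, with an adjusted p of 0.487. Adamts13, which cuts von Willebrand factor, stayed below 0.1 FPKM, as did Adamts20, and Adamts18 and Adamts19 were below 0.001 FPKM in every sample.

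Among the ADAMTS-like genes the most abundant one fell and a rarer one rose. Their summed level was 44.3 and 45.1 FPKM in the untreated and 32.8 and 38.6 FPKM in the 5-AZA samples. Adamtsl3 (punctin 2) was listed at 35.9 and 37.2 FPKM without and 22.8 and 27.5 FPKM with 5-AZA. The groups did not overlap, and the gene passed the test downward, by -0.54 ± 0.12 (SE) on the log2 scale with a limma adjusted p of 0.0101. Its adjusted p was 0.0537 without untreated replicate 2, 0.0820 without 5-AZA replicate 101 and 0.0530 without 102, and it was 0.0980 with no limit on low values and 0.0738 with eBayes without trend.

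Adamtsl1 (punctin) was called higher. Its level was 0.369 and 0.236 FPKM in the untreated and 0.919 and 0.755 FPKM in the 5-AZA samples, a log2 difference of 1.23 ± 0.32 (SE) with a limma adjusted p of 0.0222. As for Adamts6 and Adamts9, quantile normalization left little of it, 0.13 with an adjusted p of 0.754. The adjusted p was 0.132 without untreated replicate 2, 0.165 without 5-AZA replicate 101, 0.138 without 102 and 0.1004 with no limit on low values, and the difference was 0.50 with a pseudocount of 1 FPKM. Adamtsl4, known for its association with fibrillin microfibrils, was at 5.13 and 4.19 and at 5.68 and 6.21 FPKM, with an adjusted p of 0.173. Adamtsl5 was at 2.86 and 3.45 and at 3.32 and 3.93 FPKM, with overlap and an adjusted p of 0.519. Adamtsl2 was under the limit for testing, with 0.231 FPKM in 5-AZA replicate 102 as its highest value.

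The remaining members were low. In all, 24 of the 51 members reached a mean of 1 FPKM in a group, 18 stayed below 0.1 FPKM in each sample and 11 below 0.001 FPKM. The last were Mmp1a, Mmp1b, Mmp7, Mmp8, Mmp10, Mmp12, Mmp21, Mmp25, Adamts3, Adamts18 and Adamts19. Mmp27 and Mmp20, at the far end of the chromosome 9 group, did not exceed 0.0329 FPKM.

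By transcript, 75 of the 179 listed transcripts of members were tested and 2 were called higher by limma over all 35557 transcripts tested, of which 2.1% were called higher, 0.262% lower and 2.36% in either direction. One was NM_010809.2, the transcript of Mmp3, with an adjusted p of 0.0175. The other was NM_011985.3 of Mmp23, listed at 0.0491 FPKM and near 0 in the untreated and at 2.27 and 2.61 FPKM in the 5-AZA samples, with a log2 difference of 4.38 ± 0.57 (SE). It carried 81.5% and 73.1% of the Mmp23 level after 5-AZA. Both transcripts passed the limit on low values only through their 5-AZA samples. Their untreated means were 0 FPKM (NM_010809.2) and 0.0246 FPKM (NM_011985.3). Neither call was kept when any 1 of the 4 samples was left out, but without 5-AZA replicate 101 or 102 no transcript at all was called, and without untreated replicate 1 or 2 only 0.498% and 0.295% of those tested were. The Adamts15 level after 5-AZA was shared by NM_001024139.1, with 1.15 and 0.719 FPKM, and XM_006510213.1, with 0.148 and 0.676 FPKM, and these 2 transcripts were not called. How an estimate shares reads among overlapping transcripts adds to the error of such values.

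Few circRNAs came from members. Of 4295 circRNAs in the deposited table, 7 had a member as host gene, namely 2 of Timp2, 2 of Adamtsl3 and 1 each of Mmp16, Adamts9 and Adamts17. Each was found in 1 sample only, at 0.0214 to 0.0430 RPM (reads scaled to the size of the library), as were 68.3% of all circRNAs. The circRNA of Adamts17 was found in 5-AZA replicate 101, and the other 6 were found in untreated samples. With all 4295 circRNAs fitted, the median log2 difference was -0.50 over these 7 and -0.42 over all. With a limit of 2 samples, 1360 circRNAs were tested and none of the 7 was among them. Over those tested, limma called 0, and an unadjusted p below 0.05 was reached by 91 with higher and 160 with lower levels.

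The lncRNA table listed 1 transcript with a member as its nearest reference gene. TCONS_00005267, of 4 exons and 3055 bases, lies antisense to Adamts16 at chr13:70736745-70745499 on the plus strand. It was at 3.27 and 3.19 FPKM in the untreated and at 1.75 and 1.89 FPKM in the 5-AZA samples. Both 5-AZA values were lower, but the difference of -0.80 ± 0.22 (SE) had a limma adjusted p of 0.291 over 24075 lncRNAs, of which 0.154% were called lower. The libraries kept the strand, and no source used here says whether the counting did. The processing notes name the build mm9, whereas the circRNA host transcripts in the same deposit began within 1 base of a GRCm38.p6 RefSeq start in 43.4% of 1929 cases, so these coordinates appear to be on GRCm38.

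Genes that work with the members were counted from 5 lists of 82 genes, members excluded, of which 65 were tested, 9 called higher and 2 lower, or 16.9% called against 14.4% of all genes. In the list of factors that activate or restrain MMPs, 12 of 19 genes were tested and 3 were called higher, with a median log2 difference of 0.28 and 0.05 over all genes. Bsg, which encodes the MMP-inducing surface protein basigin, rose from 280 and 285 FPKM to 522 and 620 FPKM, by 1.01 ± 0.11 (SE) with a limma adjusted p of 2.56e-04. Plau, the urokinase that starts the plasmin cascade, rose from 7.60 and 6.58 to 15.8 and 16.7 FPKM, with an adjusted p of 2.44e-04. Neither gene overlapped between the groups. Bsg lay just over 2-fold and was not called when samples were centred on their medians, under quantile normalization, without untreated replicate 1 or without 5-AZA replicate 102. The third was Fbln1, which was below 1 FPKM in each sample.

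The ADAM proteases, cell-surface relatives of the ADAMTS enzymes, had 9 of 13 genes tested and 1 called. Adam8 rose from 0.466 and 0.451 to 2.73 and 2.60 FPKM, by 2.31 on the log2 scale with a limma adjusted p of 1.54e-04, while the list's median was 0.20. Of 12 genes for procollagen processing 10 were tested and limma called 0, with 3 at an unadjusted p below 0.05 and a median of 0.03. Among 15 AP-1, ETS and RUNX factors, all tested, Fosl1 was the one called, from 1.70 and 1.04 to 4.24 and 3.62 FPKM with an adjusted p of 0.00302, and the median was -0.02.

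Of 23 substrates of these enzymes 19 were tested, with 4 called higher and 2 lower and a median log2 difference of 0.45. Over all genes tested, 13.1% were called higher and 1.32% lower, and the median was 0.05. Col2a1, the collagen of cartilage, fell by 3.52 on the log2 scale, from 67.5 and 57.1 to 4.13 and 6.84 FPKM. Cspg4, the proteoglycan NG2, fell from 20.5 and 18.1 to 4.85 and 6.37 FPKM. Thbs1 and Thbs2, the thrombospondins, rose by 2.34 and 1.79 on the log2 scale, Thbs1 from 3.79 and 3.38 to 16.5 and 20.8 FPKM and Thbs2 from 10.6 and 8.68 to 33.6 and 33.2 FPKM. The groups overlapped in none of these 4 genes. Without 5-AZA replicate 101 part of the 11 calls of the 5 lists was lost and Eln was added, and without 102 part of them was lost. Col2a1, Cspg4, Thbs1 and Adam8 were called in both of these fits, and Plau, Thbs2 and Fosl1 in neither.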

How the data were processed

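RNA from 2 untreated and 2 5-AZA treated C3H10T1/2 samples was compared. The authors removed ribosomal RNA, made stranded libraries and, per the submitters' processing notes, used Trimmomatic, HISAT2, Bowtie2 2.2.9 and eXpress 1.5.1. The FPKM values per transcript of mRNAs and lncRNAs and the RPM values of circRNAs were used as deposited by the authors. Because the tables hold no counts, limma 3.58.1 (lmFit, eBayes with trend) in R 4.3.3 with the data.table package (version 1.17.8) was used here, on log2(FPKM + 0.1) of genes whose mean over the 4 samples reached 0.1 FPKM. The lowest positive RPM, 0.0213, served as the pseudocount of circRNAs, and those found in at least 2 samples were tested. P-values were adjusted by Benjamini and Hochberg's approach, separately for genes, transcripts, lncRNAs and circRNAs. Depth is unknown for FPKM values, and no interval for counting error is given. With 2 samples against 2, an exact permutation test cannot reach p = 0.05, and none was run.

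The members and lists were chosen with earlier results of these data known. Named are all members that were called or reached a mean of 1 FPKM in a group, and, per list, up to 4 called genes by size of change whose higher group mean was at least 1 FPKM. Fbln1, Mmp13, Mmp15, Timp4, Adamts7, Adamts8, Adamts14, the antisense lncRNA and the transcripts were added after their values were seen, as was the rule of an adjusted p at any size. Promoters came from RefSeq (GRCm38.p6). A planned search for zinc sites in the proteins was not run here. Deposited GO, KEGG and comparison columns were not used. The tests were tried on simulated data. Other pseudocounts, limits, scalings and the omission of each sample were tried as alternatives.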

Additional observations from a re-analysis of the deposited data

How the results depend on the processing

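The 6 member calls numbered 3 with a pseudocount of 1 FPKM, 3 with no limit on low values (Mmp3, Mmp23 and Adamts15), and 2 of 22 tested with a mean of at least 1 FPKM, where fewer genes were tested; the share called over all genes was 7.28%, 7.21% and 8.95% in these settings, against 14.4%. Counting an adjusted p below 0.05 at any size gave 13, of which 11 were higher and 2 lower. Leaving out 1 sample at a time gave 1 to 6 member genes, 0 to 0 member transcripts, 4 to 10 of the 11 list genes, and 0 to 0 circRNAs. Each such fit has a lone sample in 1 group, which is assumed to vary like the other group. The 2 transcript calls became 1 with a pseudocount of 0.01 FPKM and 0 with no limit on low values. Over all transcripts tested, 1.6% were called with that pseudocount and 0 of 66285 with no limit, against 2.36%. Centring each sample on its median moved the median of all genes by -0.11 and gave 5 member calls, and quantile normalization moved it by -0.17, also with 5. Higher genes were 86.4% of all calls when centred and 54% under quantile normalization, against 90.8%. None of the 13 members that passed the adjusted p changed direction under any of the alternatives tried, and Mmp3 was called under all 11. The cause of these differences was not tested beyond what each setting itself changes. No paired analysis was possible because the groups share no replicate numbers. With no read depth known and 2 samples per group, the effect of depth on these calls was not tested.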
